A study of Homo sapiens with 8 samples.

Results

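The acetylated regions of human chromosome 19 were the stretches of this chromosome covered by a peak of H3K27ac, acetylation of lysine 27 on histone H3, in ARID1A knockout or in control MDA-MB-231 cells. All peaks of both genotypes on chromosome 19 were taken, and peaks that overlapped by at least 1 bp were merged. This gave 1961 regions of 48662 on chromosomes 1 to 22 and X. A region was knockout-only, control-only or shared, by which list held its peaks, so the class of a region is a description of how it was chosen and carries no test. Members were thus chosen by their peak calls.

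MDA-MB-231 is a cell line long grown from a triple-negative breast cancer, and ARID1A is the subunit that defines the BAF form of SWI/SNF, a complex that moves nucleosomes. There were 8 libraries in 4 groups of 2, namely H3K27ac immunoprecipitates of ARID1A knockout and of control cells, and inputs of ARID1A knockout and of control cells. No treatment was labelled, and the labels said neither if a single clone or a pool was used nor if replicates were separate cultures. An anti-H3K27ac antibody stood in the sample characteristics but one to H3K4me3 in the extraction protocol, so the word acetylated rests on the titles and characteristics. There was 1 peak list per genotype, so each value below is 1 value without replicate error, no test of the genotype was possible, and a peak list does not check the loss of ARID1A.

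H3K27ac is laid down by the acetyltransferases p300 and CBP at active promoters and enhancers, and SWI/SNF complexes that contain ARID1A act mainly at enhancers. Chromosome 19 is the most gene-dense human chromosome. It holds most of the clustered genes for Krüppel-associated box zinc finger proteins, which silence transposable elements, besides clusters of immune receptor, kallikrein, pregnancy-specific glycoprotein and olfactory receptor genes and a primate-specific cluster of placental microRNAs.

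Sequences are shown for 6 promoters whose gene start had a peak in 1 genotype alone, because these are the places where the peak difference falls on a known start. Each runs from 250 bases before to 50 after the start, 5′ to 3′ on the strand of the gene, from RefSeq on GRCh38.p14, the assembly that hg38 represents. Capitals mark matches, on either strand, to letters that are known as binding motifs. Those of the promoter core were the TATA box, searched as TATAAA, and the CCAAT box, searched under the letters of its name. Those of the SP1 family were searched as GGGCGG and those of ETS proteins as CCGGAAG. For the factor AP-1 the letters were TGANTCA, for the factor CREB they were TGACGTCA, and for E-box proteins they were CACGTG. The first 3 had a knockout-only region at the start: GMFG (glia maturation factor gamma, an actin regulator of blood cells; minus strand, chr19:39335994-39336293), PTPRS (a receptor tyrosine phosphatase; minus strand, chr19:5340763-5341062) and GRAMD1A (a cholesterol transfer protein; plus strand, chr19:34994477-34994776). The other 3 had a control-only region: EMC10 (a subunit of the endoplasmic reticulum membrane complex; plus strand, chr19:50476257-50476556), ZNF256 (a zinc finger protein; minus strand, chr19:57947657-57947956) and GDF15 (a stress-induced cytokine related to TGF-beta; plus strand, chr19:18385908-18386207).
GMFG: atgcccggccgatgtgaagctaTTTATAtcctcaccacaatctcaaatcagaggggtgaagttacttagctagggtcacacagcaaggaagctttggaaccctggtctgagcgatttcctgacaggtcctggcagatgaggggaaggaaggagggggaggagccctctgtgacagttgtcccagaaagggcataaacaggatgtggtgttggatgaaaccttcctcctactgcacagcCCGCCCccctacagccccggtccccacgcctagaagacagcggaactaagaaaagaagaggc
PTPRS: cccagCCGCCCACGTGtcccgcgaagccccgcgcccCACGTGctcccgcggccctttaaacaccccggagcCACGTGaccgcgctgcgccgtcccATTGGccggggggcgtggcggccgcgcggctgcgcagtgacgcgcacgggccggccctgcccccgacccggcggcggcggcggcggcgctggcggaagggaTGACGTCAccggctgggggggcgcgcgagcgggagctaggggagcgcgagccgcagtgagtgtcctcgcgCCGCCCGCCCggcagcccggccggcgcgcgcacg
GRAMD1A: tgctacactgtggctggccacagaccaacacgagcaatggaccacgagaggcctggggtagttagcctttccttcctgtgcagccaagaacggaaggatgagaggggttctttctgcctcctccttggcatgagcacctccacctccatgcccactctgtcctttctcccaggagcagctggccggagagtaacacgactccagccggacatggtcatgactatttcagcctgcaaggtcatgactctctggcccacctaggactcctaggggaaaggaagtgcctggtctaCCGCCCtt
EMC10: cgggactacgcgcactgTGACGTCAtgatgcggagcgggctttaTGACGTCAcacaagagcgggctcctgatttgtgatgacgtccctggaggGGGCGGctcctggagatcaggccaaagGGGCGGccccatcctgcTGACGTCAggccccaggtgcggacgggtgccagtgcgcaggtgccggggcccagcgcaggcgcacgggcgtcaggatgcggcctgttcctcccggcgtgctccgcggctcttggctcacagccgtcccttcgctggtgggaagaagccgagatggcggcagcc
ZNF256: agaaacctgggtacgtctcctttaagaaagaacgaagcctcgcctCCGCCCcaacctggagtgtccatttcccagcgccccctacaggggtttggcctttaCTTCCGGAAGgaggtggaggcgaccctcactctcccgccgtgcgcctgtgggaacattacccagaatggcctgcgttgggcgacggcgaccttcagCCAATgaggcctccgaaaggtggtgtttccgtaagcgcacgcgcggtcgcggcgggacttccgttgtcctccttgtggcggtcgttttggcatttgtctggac
GDF15: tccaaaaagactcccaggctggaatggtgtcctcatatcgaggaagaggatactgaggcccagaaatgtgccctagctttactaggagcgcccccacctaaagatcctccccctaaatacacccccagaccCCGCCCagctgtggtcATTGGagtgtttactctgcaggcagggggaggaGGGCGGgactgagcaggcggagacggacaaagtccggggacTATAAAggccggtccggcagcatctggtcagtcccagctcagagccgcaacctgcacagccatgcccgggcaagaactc

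The PTPRS promoter was the richest in G and C, at 81.3% with 55 CpG pairs, and in it SP1 and E-box letters overlapped once and SP1 letters overlapped each other once. The GMFG and GRAMD1A promoters had 54.3% and 57.7% G and C and 7 CpG pairs each. Among the control-only starts, EMC10 had 68.7%, 29 CpG pairs and 3 matches to the CREB letters, ZNF256 had 61.0% and 26 CpG pairs, and GDF15 had 59.3%, 11 CpG pairs and a TATA box match. The promoters in either set thus ranged from CpG-poor to CpG-rich, and the SP1 letters were the only ones searched that all 6 held. Of all 15811 promoters of this length, 9.64% held TATAAA, 36.3% CCAAT, 58.5% GGGCGG, 14.2% CCGGAAG, 5.75% TGANTCA, 2.59% TGACGTCA and 8.87% CACGTG. A match describes letters in this window and is not a binding site.

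Mature microRNAs of the hairpins described below are given next, as RNA with the seed (bases 2 to 8) in capitals. miR-3189-3p comes from the hairpin inside the control-only region at GDF15. miR-23a-3p, miR-27a-3p and miR-24-3p come from 1 short cluster inside 1 of the widest shared regions. miR-372-3p and miR-373-3p, which share the seed AAGUGCU, come from a cluster that no region covered.
hsa-miR-3189-3p: cCCUUGGGucugaugggguag
hsa-miR-23a-3p: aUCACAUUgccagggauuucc
hsa-miR-27a-3p: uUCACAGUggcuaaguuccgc
hsa-miR-24-3p: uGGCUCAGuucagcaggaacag
hsa-miR-372-3p: aAAGUGCUgcgacauuugagcgu
hsa-miR-373-3p: gAAGUGCUucgauuuuggggugu

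Chromosome 19 had the lowest knockout-only share and the highest shared share of the 23 chromosomes. Of its 1961 regions, 219 were knockout-only (11.2%, 95% interval 9.81 to 12.6), against 19.9% of the 46701 regions elsewhere and 19.6% on all chromosomes together. Control-only regions numbered 267 (13.6%, 12.1 to 15.2), against 14.7% elsewhere and 14.7% on all chromosomes. The remaining 1475 (75.2%, 73.2 to 77.1) were shared, against 65.3% elsewhere. Intervals are exact binomial and cover counting error only. The knockout-only minus control-only difference was therefore -2.45 percentage points on chromosome 19 and 5.18 elsewhere. This sign depended on the cut of the lists: at a −log10 q of at least 5 the difference on chromosome 19 was 5.88, and at 2 it was 1.89. At both of these cuts, and with lists of equal length, chromosome 19 still had the lowest knockout-only share of the 23. Chromosome 17, also gene-dense, came next, with 13.0% knockout-only and 17.5% control-only of 2335 regions.

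The peaks on chromosome 19 were strong within their own lists. Fold enrichment over the input background, pileup (the depth of overlapping fragments) and width are the authors' values and are read only within a list. The knockout list held 1753 peaks over 3.89 Mb and the control list 1764 over 4.30 Mb. Median pileup was 54.9 in the knockout list, against 31.4 on its other chromosomes. In the control list it was 32.5, against 22.4 on its other chromosomes. The median chromosome 19 peak stood at percentile 67.1 of the knockout list and 62.0 of the control list by fold. Every peak in the upper 10% of either list, 284 in the knockout list and 260 in the control list, lay in a shared region, as did 99.92% of such knockout peaks and 99.95% of such control peaks on other chromosomes. In the lowest 10% of the knockout list, 53.7% of 121 chromosome 19 peaks did, against 40.6% elsewhere. In the lowest 10% of the control list, 31.9% of 163 did, against 41.7% elsewhere.

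The highest peaks of the chromosome lay at gene starts in both genotypes. The 8 shared regions that ranked highest in both lists lay at the starts of KEAP1 (the sensor that restrains NRF2), ZBTB7A, FKBP8, KDELR1 (which returns proteins to the endoplasmic reticulum), DPY19L3, ZC3H4, MED16 (a Mediator subunit) and CSNK1G2. KEAP1 had a fold of 42.7 and a pileup of 300.3 in the knockout list and a fold of 30.3 and a pileup of 169.6 in the control list. FKBP8 had folds of 32.99 in the knockout list and 35.3, the highest of the chromosome, in the control list.

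Position relative to genes separated the classes, although knockout-only and control-only regions had similar shares at gene starts. Of knockout-only regions, 10.1% lay within 1 kb of a gene start, 53.0% in a gene body away from starts and 36.99% between genes. Of control-only regions, 8.99% lay at a start, 71.9% in a body and 19.1% between genes. Of shared regions, 52.7% lay at a start. Elsewhere 48.4% of knockout-only and 58.8% of control-only regions lay in a body, and 48.8% of knockout-only and 37.1% of control-only between genes. Of shared regions elsewhere, 32.1% lay at a start, so these contrasts were not particular to chromosome 19. Genotype-only regions were also narrow, with a median width of 708 bp for knockout-only, 732 bp for control-only and 2129 bp for shared regions. The median fold percentile was 22.97 for knockout-only and 14.04 for control-only regions, so most came from the weaker end of their list. Elsewhere the median widths were 766 bp for knockout-only, 671 bp for control-only and 2136 bp for shared regions. The median fold percentiles elsewhere were 20.1 for knockout-only and 16.4 for control-only regions.

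The low knockout-only share was not spread evenly over these positions. At gene starts it was 2.67% (1.68 to 4.02) on chromosome 19 and 2.51% (2.22 to 2.83) elsewhere, so the intervals overlapped. In gene bodies it was 15.2% (12.7 to 17.9) on chromosome 19 and 23.1% (22.5 to 23.7) elsewhere. Between genes it was 21.6% (17.5 to 26.1) on chromosome 19 and 27% (26.3 to 27.7) elsewhere. Control-only regions in gene bodies went the other way, at 25.2% (22.1 to 28.4) on chromosome 19 and 20.7% (20.1 to 21.3) elsewhere. This was not particular to chromosome 19. In gene bodies of chromosome 17, 16.4% (14.2 to 18.8) of regions were knockout-only and 27.8% (25.1 to 30.6) control-only. Chromosome 19 had the highest share of regions at gene starts of the 23 chromosomes (41.97%) and the most genes around them, a median of 30 protein-coding genes within 500 kb against 8 elsewhere.

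Among regions with similar gene density the difference from other chromosomes was small or turned round. With 10 to 19 genes within 500 kb, 13.5% of regions were knockout-only on chromosome 19 and 14.95% elsewhere. With 20 to 29 genes the shares were 10.3% on chromosome 19 and 11.1% elsewhere. With 30 to 39 genes chromosome 19 had the higher share, 11.97% (9.73 to 14.5) against 8.59% (7.29 to 10.04) elsewhere. Elsewhere, the knockout-only share went down as gene density went up, to 7.46% with 40 or more genes, from 28.7% with 0 to 4, a density class with under 20 regions on chromosome 19.

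**Figure D1:**
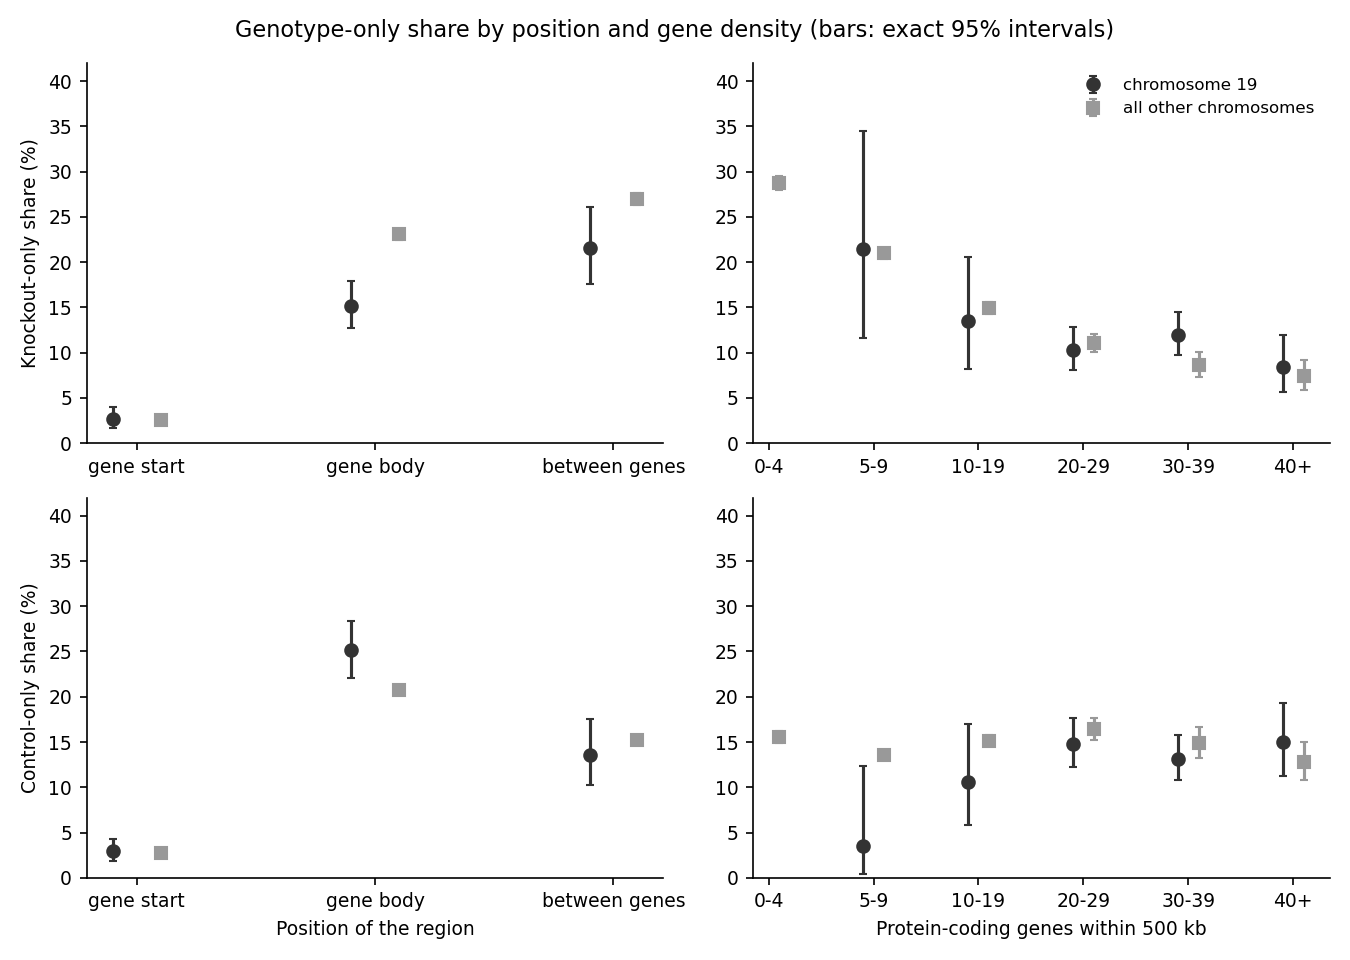
Share of regions (%) that were knockout-only (top) and control-only (bottom), by position (left) and by number of protein-coding genes within 500 kb (right); dark circles are chromosome 19, grey squares all other chromosomes, and bars exact 95% binomial intervals. In gene bodies the chromosome 19 point lies below the others for knockout-only (15.2% against 23.1%) and above them for control-only regions (25.2% against 20.7%), while at similar gene density the points mostly lie close together.

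Along the chromosome, in 5 Mb windows by region midpoint, acetylated regions followed genes. The fewest regions lay around the centromere: 42 from 20 to 25 Mb, 18 from 25 to 30 Mb and 60 from 30 to 35 Mb, with 34, 7 and 34 protein-coding genes. The most lay from 45 to 50 Mb, with 288 regions and 182 genes, and from 0 to 5 Mb, with 275 regions and 201 genes. Over 12 windows, genes and regions per Mb had a Pearson r of 0.875 and a Spearman rho of 0.655, as a description of windows that share libraries and neighbours. Leaving out each window in turn gave an r of 0.824 to 0.924. With median pileup, gene density had an r of -0.01 in the knockout list and -0.03 in the control list. In 30 windows of 2 Mb these were 0.04 in the knockout list and 0.29 in the control list.

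The 2 windows from 50 Mb onward had few regions for their genes, 0.764 per gene from 50 to 55 Mb and 0.926 from 55 Mb on, against 1.17 or more in each window before. These windows hold 42 and 60 of the chromosome's ZNF genes and the immune receptor clusters. In them 52.5% and 60.8% of regions lay at a gene start. Of the earlier windows, only that from 20 to 25 Mb, with 54.8%, had a share above 46.1%.

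**Figure D2:**
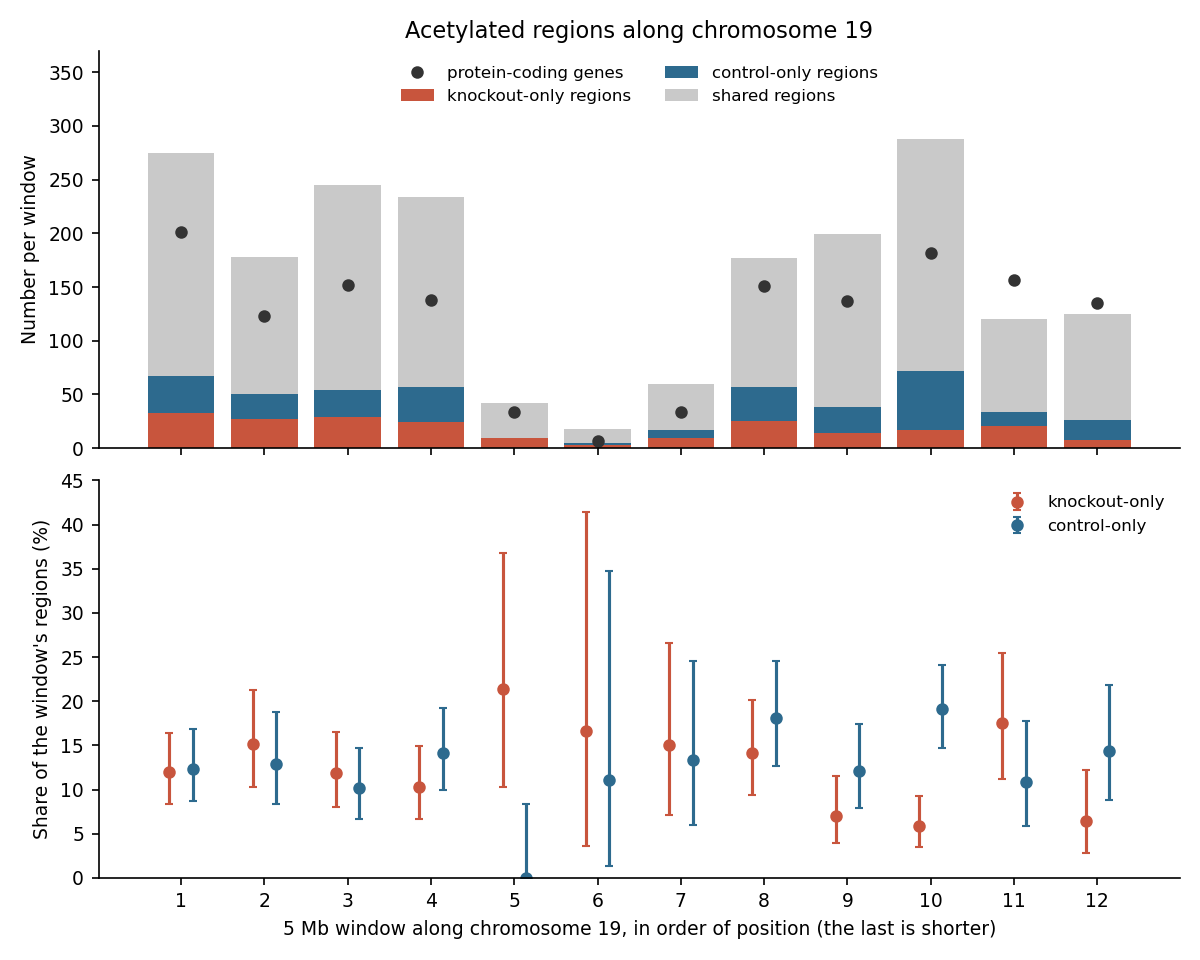
Top: number of knockout-only, control-only and shared regions (stacked bars) and of protein-coding genes (dots) in each of 12 windows of 5 Mb along chromosome 19, the last of 3.58 Mb. Bottom: knockout-only (red) and control-only (blue) share of each window's regions (%) with exact 95% intervals; window 10 (45 to 50 Mb) has 5.90% knockout-only and 19.1% control-only regions, and window 5 (20 to 25 Mb) has 21.4% knockout-only and 0% control-only regions.

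The balance of the genotype-only classes differed between windows. From 45 to 50 Mb, 17 regions were knockout-only (5.90%, 3.48 to 9.28) and 55 control-only (19.1%, 14.7 to 24.1). From 20 to 25 Mb, 9 of 42 were knockout-only (21.4%, 10.3 to 36.8) and 0 control-only, with an exact upper bound of 8.41%. From 50 to 55 Mb, 17.5% were knockout-only and 10.8% control-only. Control-only regions outnumbered knockout-only ones in 50% of the windows, and in 16.7% at a −log10 q of at least 5. With windows shifted by 2.5 Mb the most negative difference was at 37.5 to 42.5 Mb. In the unshifted windows at a −log10 q of at least 5, it was in the last window, from 55 Mb on. The place of the window at 45 to 50 Mb thus depends on how the chromosome and the lists are cut.

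**Figure D3:**
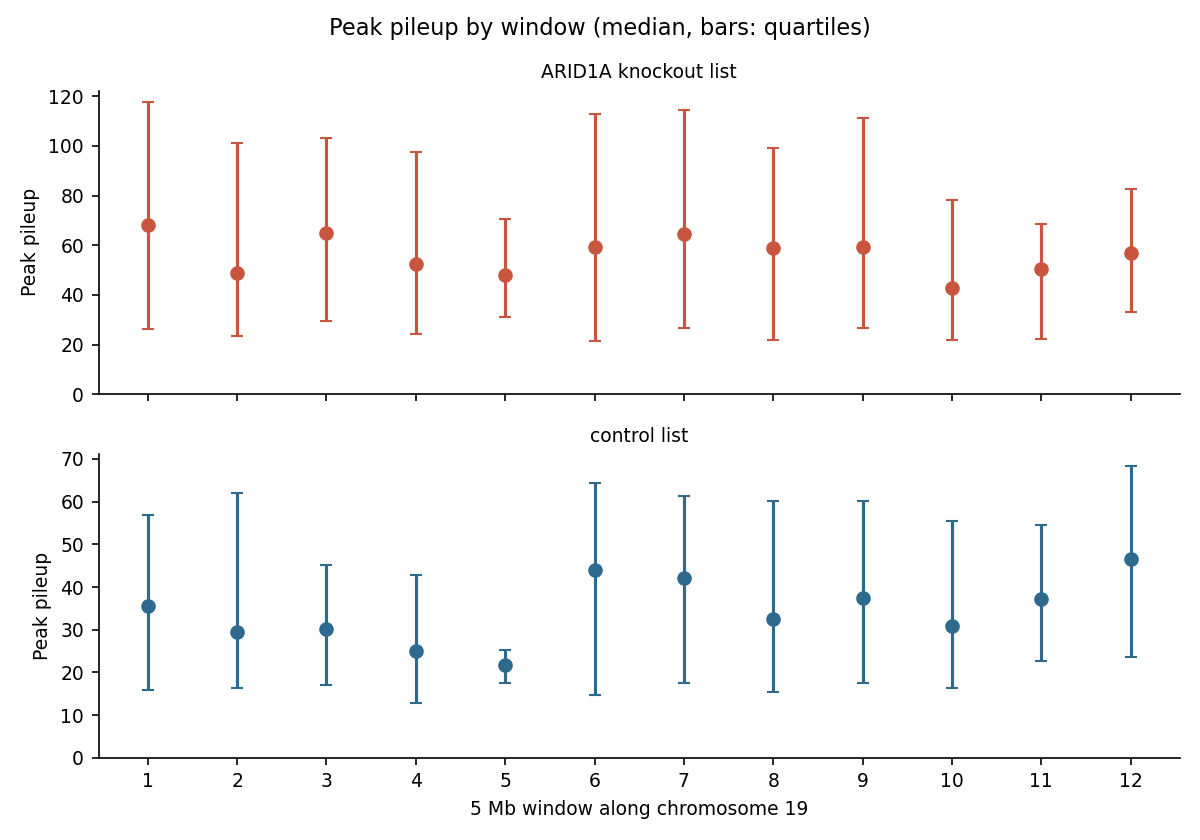
Median peak pileup (points) with the lower and upper quartile (bars) in each 5 Mb window of chromosome 19, for the ARID1A knockout list (top) and the control list (bottom), each on its own axis. The knockout medians lie between 42.8 (window 10) and 68.0 (window 1), and the control medians between 21.8 (window 5) and 46.5 (window 12).

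Pileup was lowest in different windows in each list. In the knockout list the window medians ranged between 42.8, from 45 to 50 Mb, and 68.0, from 0 to 5 Mb. In the control list they ranged between 21.8, from 20 to 25 Mb, and 46.5, from 55 Mb on. The windows with the fewest regions were not the lowest in the knockout list, with medians of 59.2 from 25 to 30 Mb and 64.5 from 30 to 35 Mb.

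Long stretches carried no region in either genotype. The longest, 3.69 Mb from 24088180 to 27776262, spans the centromere and holds no protein-coding gene of the table. The next, 1.40 Mb from 21852492 to 23248911, holds 10 genes, all ZNF genes (among them ZNF208, ZNF257 and ZNF676). A gap of 1.11 Mb held only ZNF536, a neuronal zinc finger gene. Shorter gaps lay over clusters of tissue-restricted genes. A gap of 532.1 kb held 16 genes, among them the KIR and LILR receptors of natural killer and myeloid cells. A gap of 594.6 kb held the imprinted PEG3 with ZIM2, ZIM3 and USP29. Another of 419.2 kb held CEACAM3 to CEACAM7, and 1 of 409.5 kb the oocyte genes NLRP5, NLRP8, NLRP11 and NLRP13. The gaps were chosen as stretches without a region of either list, so that both lists are bare there follows from the choice.

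Strong genotype-only regions were few. Strong means here that the best peak of the region ranked in the upper 50% of its list by fold, with the other list empty for 1 kb around. Knockout-only strong regions numbered 22, which is 1.12% of regions, against 1.49% elsewhere and 1.48% on all chromosomes. Control-only strong regions numbered 15, or 0.765%, against 0.612% elsewhere and 0.619% on all chromosomes. The ratio of knockout-only to control-only was 1.47 on chromosome 19 and 2.44 elsewhere, but on chromosome 19 it hung on the definition. With the other list empty for 5 kb around there were 16 strong knockout-only and 7 control-only regions, and at a −log10 q of at least 5 there were 19 knockout-only and 3 control-only ones. The knockout-only region just inside the cut had a fold of 5.39 and the one just outside 5.30. For control-only regions these folds were 5.58 and 5.15. From 0 to 15 Mb there were 10 strong knockout-only regions and 0 control-only ones, and over the rest of the chromosome 12 knockout-only and 15 control-only ones. This split at 15 Mb was not planned and was made with the window counts known, so it marks no tested division of the chromosome.

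The strongest knockout-only region was also by far the widest. It ran for 15.99 kb from 23546212 to 23562204 between genes, with a fold of 13.1 and a pileup of 81.6. Its nearest listed gene start, that of ZNF675, was 125 kb away, and the nearest control peak 123.9 kb away. With 2 weaker knockout-only regions to its left, at folds of 3.45 and 4.36, it formed a run of 3 over 79.5 kb in the otherwise sparse ZNF91 to ZNF675 stretch. In the control list no peak lay in this run.

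Of the other strong knockout-only regions, 5 lay at a gene start or, for PALM and ADGRE2, which had no listed start, at a gene end. The region over the start of GMFG (39334374 to 39338462) had a fold of 9.48, and that next to the start of PTPRS (5339528 to 5340779) one of 7.19; both promoters are printed above. PALM, which encodes the membrane protein paralemmin, had a fold of 6.69 and GRAMD1A one of 5.85. ADGRE2, an adhesion receptor of myeloid cells, had regions of fold 7.33 at its end and 8.13 at 5.67 kb beyond it. In gene bodies, a region in CACNA1A, the pore subunit of a neuronal calcium channel, had a fold of 11.1, 1 in PIP5K1C, a kinase that makes the lipid PIP2, had 8.78, and 1 of 9.23 kb in FXYD5, a regulator of the sodium pump and cell adhesion, had 8.91. Of these, FXYD5 had peaks at its start in both genotypes, with folds of 25.2 in the knockout list and 23.1 in the control list.

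The strongest control-only regions lay at or in EMC10, SSBP4, SSC5D and ZNF256. The region over the start of EMC10 and the near end of GARIN5A (50476459 to 50477268) had a fold of 10.3, and the nearest knockout peak was 33.2 kb away. Regions in SSBP4 and SSC5D had folds of 9.21 and 7.94, and the start of ZNF256 had 7.43. Lower in the list came a region near CD177 (6.99), 1 in ZNF331 (6.94), 1 in SLC27A5, a liver enzyme that activates bile acids (6.87), and 1 in GRIK5, a glutamate receptor subunit (6.70). The GDF15 region (18385357 to 18389329, fold 6.57) covered the whole gene and the hairpin of MIR3189, and the nearest knockout peak was 3.19 kb away. At the start of SYNE4, which links the nucleus to the cytoskeleton, the fold was 6.30, and at that of DYRK1B, a kinase of quiescent cells, 5.58.

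Counting both ends of every gene, 36 knockout-only and 45 control-only regions lay at a gene end. Among the 12 knockout-only ones of highest fold were also those at ZNF808 (5.50), the fatty acid hydroxylase CYP4F11 (5.11) and the pseudokinase PEAK3 (4.93). Among the 12 control-only ones were those at LIPE (hormone-sensitive lipase, 5.98), LGALS7B (galectin-7, 4.70), ZNF577 and ZNF649 (4.52), ZNF671 (4.31) and KCNJ14 (a potassium channel, 4.03). Of genes with a ZNF symbol, only ZNF808 was thus among the 12 knockout-only regions. ZNF256, ZNF574, ZNF577, ZNF649 and ZNF671 were among the 12 control-only ones. At starts with a peak in 1 list alone, 0 of 27 knockout genes and 5 of 30 control genes had a ZNF symbol. The 27 include ZFP28, a zinc finger gene without that symbol. Of all 1451 genes of the chromosome, 250 did.

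Some genotype-only regions stood in runs of 3 or more with no other region between them. There were 8 runs of knockout-only regions with 31 members and 8 of control-only regions with 25. The run with the most members had 8 knockout-only regions over 84.4 kb, from 51725887 to 51810300, past HAS1 (hyaluronan synthase) and over FPR1 and FPR3, receptors for formyl peptides on neutrophils and monocytes. Their folds were 3.59 to 8.26, and the nearest control peak was 20.6 to 86.5 kb from each. A run of 4 crossed ADGRE2 and the sequence beside it (14731030 to 14795967, folds 2.90 to 8.13). In a run of 4 from 36223300 to 36331717, from ZNF565 and ZNF146 to ZFP14, all 4 were strong, with folds of 5.39 to 10.5; 3 of them were 257 to 670 bp wide. These runs were picked out after their values were seen.

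The control-only runs lay mostly inside genes and had folds of 4.86 or less. The run with the most members had 4 regions inside SAE1, a subunit of the enzyme that activates SUMO, with folds of 2.44 to 2.94. Others lay in SH3GL1 (endophilin A2) and ELL (an elongation factor of RNA polymerase II), with folds of 2.53 to 3.74. SIPA1L3, a cell polarity gene of 301.2 kb, was touched by 1 knockout-only, 9 control-only and 10 shared regions. ELL was touched by 1 knockout-only and 6 control-only regions, and SAE1 by 0 knockout-only and 6 control-only regions. In all, 4 genes were touched by 3 or more knockout-only regions (PTPRS, MUC16, FPR3 and GNG7) and 8 by 3 or more control-only regions.

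Broad shared regions, that at SAE1 among them, were more often shorter in the knockout list. At the SAE1 start the shared region was covered over 3.53 kb in the knockout list and 13.3 kb in the control list. At DEDD2 and ZNF526 the lengths were 9.996 kb in the knockout list and 21.97 kb in the control list. At ANGPTL4, an inhibitor of lipoprotein lipase, they were 8.99 kb in 4 knockout peaks and 16.3 kb in 1 control peak. Each of these regions held 1 control peak and several knockout peaks of smaller summed length. They were picked by their length difference, and shorter did not always go with a lower rank. By fold, the SAE1 region stood at percentile 87.1 of the knockout list and 53.55 of the control list. At DEDD2 the percentiles were 91.1 in the knockout list and 66.5 in the control list. At ANGPTL4 they were 60.3 in the knockout list and 83.7 in the control list.

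The widest region of the chromosome, at ACTN4 (the actin cross-linker alpha-actinin-4), spanned 54.5 kb, of which 46.8 kb were covered in the knockout list and 53.4 kb in the control list. BCL3, a co-regulator of NF-kappaB, went the other way, with 24.8 kb in the knockout list and 19.8 kb in 4 control peaks. Of 37 shared regions over 10 kb, 7 were longer in the knockout list and 30 in the control list. Elsewhere 306 were longer in the knockout list and 451 in the control list. Of all 1475 shared regions, 45.4% were longer in the knockout list and 54.6% in the control list. Elsewhere these shares were 50.9% in the knockout list and 49.1% in the control list. Width also depends on how each list was called, which was not tested.

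**Figure D4:**
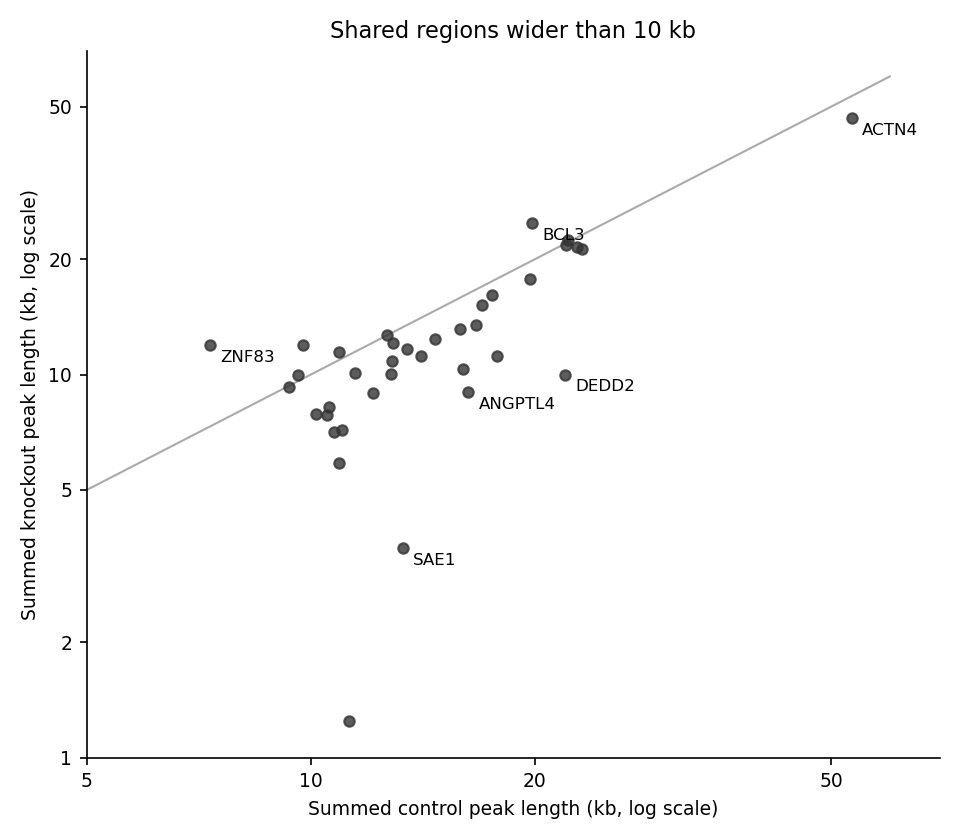
Summed peak length in the knockout list (vertical, kb, log scale) against that in the control list (horizontal, kb, log scale) for the 37 shared regions of chromosome 19 wider than 10 kb, with the line of equal length. Of these, 30 points lie below the line, among them SAE1 (3.53 kb knockout, 13.3 kb control), and 7 above it, among them BCL3 and ZNF83.

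Gene starts were largely alike in the genotypes. Of 1451 protein-coding genes on chromosome 19, 883 (60.9%) had a peak within 1 kb of the start in both lists, and 511 (35.2%) in neither. The knockout list alone had a peak at 27 (1.86%, against 1.47% of all genes) and the control list alone at 30 (2.07%, against 1.66% of all genes). At 6 of the 27 and 10 of the 30 the peak belonged to a shared region that reached the start in 1 genotype only, as at ETV2 in knockout cells and PSG4 in control cells. Promoter sequence was at hand for 20 of the 27 and 26 of the 30. Their median ratio of observed to expected CpG was 0.398 with a knockout peak alone and 0.332 with a control peak alone, against 0.827 with both and 0.374 with neither. On other chromosomes it was 0.575 with a knockout peak alone and 0.667 with a control peak alone, against 0.854 with both.

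Zinc finger genes, taken here as those with a ZNF symbol, had a larger share of starts with a peak than the chromosome's other genes. Of 250 genes with a ZNF symbol, 204 (81.6%) had a peak in both lists, 0 in knockout alone, 5 in control alone (ZNF256, ZNF575, ZNF577, ZNF587B and ZNF671) and 41 in neither. Of the other 1201 genes of the chromosome, 679 had a peak in both lists, 27 in knockout alone, 25 in control alone and 470 in neither. These other genes include zinc finger genes under other symbols. Among them ZFP28 had a peak in knockout alone, in a shared region, at a fold of 12.5. The count of 0 in knockout alone thus holds for the ZNF symbol and not for all zinc finger genes. On other chromosomes, of 268 ZNF genes, 215 had a peak in both, 5 in knockout alone and 4 in control alone. The ETS letters CCGGAAG were in 45.9% of the ZNF promoters of chromosome 19 with a peak in both lists and in 41.9% of those with a peak in neither, against 18.9% of all promoters of the chromosome.

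Of the gene groups, those of basic cell functions had peaks in both genotypes almost throughout. All 6 early response and AP-1 genes did, with folds at JUND of 33.6 in the knockout list and 23.95 in the control list, and at JUNB of 30.8 in the knockout list and 25.04 in the control list. So did 9 of 9 DNA repair genes, 12 of 13 cytosolic ribosomal protein genes, 11 of 12 replication and cell cycle genes, and 18 of 20 mitochondrial genes. Of 19 SWI/SNF and chromatin regulators 18 did, with SMARCA4, the ATPase of the complex that ARID1A belongs to, at folds of 20.03 in the knockout list and 19.6 in the control list. DPF1, a neuronal subunit, had neither. None of these 6 groups had a member with a peak in 1 genotype alone.

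In signalling groups, few members had a peak in 1 list alone, next to 1.86% (knockout alone) and 2.07% (control alone) of all genes of the chromosome. Of 19 genes for TGF-beta, Notch and other receptor signalling, 15 had peaks in both lists and GDF15 in control alone. TGFB1 itself had folds of 23.4 in the knockout list and 16.2 in the control list, and AXL, a receptor kinase typical of mesenchymal-like breast cancer lines, 24.02 in the knockout list and 19.1 in the control list. Of 12 NF-kappaB and inflammatory genes 10 had both, among them RELB (16.4 in the knockout list, 20.5 in the control list) and ICAM1 (23.8 in the knockout list, 17.6 in the control list). In the interferon group 7 of 11 had both and FCGRT, the neonatal Fc receptor, control alone at a fold of 3.39. This group is loosely drawn. Its 7 include ISYNA1, an enzyme of inositol synthesis, and TRIM28, also counted with the chromatin regulators. The interferon genes IFNL1, IFNL2 and IFNL3 had neither. Of 16 genes of metabolism and iron 13 had both, with FTL, the ferritin light chain, at folds of 32.2 in the knockout list and 22.7 in the control list.

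Genes of other tissues and most of the listed epithelial genes were bare. All 15 kallikreins had no peak at the start in either list. Of 20 epithelial genes 13 had none, among them CEACAM5, CEACAM6 and kallikreins, which are also counted in their own groups. The 13 also include CNN1, which is rather a smooth muscle gene. Another 6 had both, namely PPP1R13L, MISP, LSR, CLDND2, DMKN and SPINT2. Of these, PPP1R13L had folds of 24.3 in the knockout list and 15.5 in the control list. FUT3, a fucosyltransferase, had control alone at a fold of 2.44. In the CEACAM and PSG group of 22, CEACAM1 and CEACAM19 had both, PSG6 knockout alone at a fold of 5.20 and PSG4 control alone at 9.34. Of 23 blood-cell genes 20 had none, VSTM1 both, and AZU1 (azurocidin, a neutrophil granule protein) and FPR1 knockout alone at folds of 4.64 and 5. This list does not hold every blood-cell gene, and FCGRT, counted above with the interferon genes, was planned as one. Outside the list such genes went both ways. C5AR1, HCST and OSCAR had a peak in control alone at folds of 3.35, 14.7 and 7.37, at HCST and OSCAR in a shared region. GMFG and ADGRE2 had one in knockout alone at 9.48 and 7.33. Liver genes had none at 8 of 10, nerve and glia genes at 10 of 13, with GRIN2D control alone at 2.91, and muscle and heart genes at 5 of 8. Of 7 FXYD and ion pump genes, 4 had both and 3 neither.

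**Figure D5:**
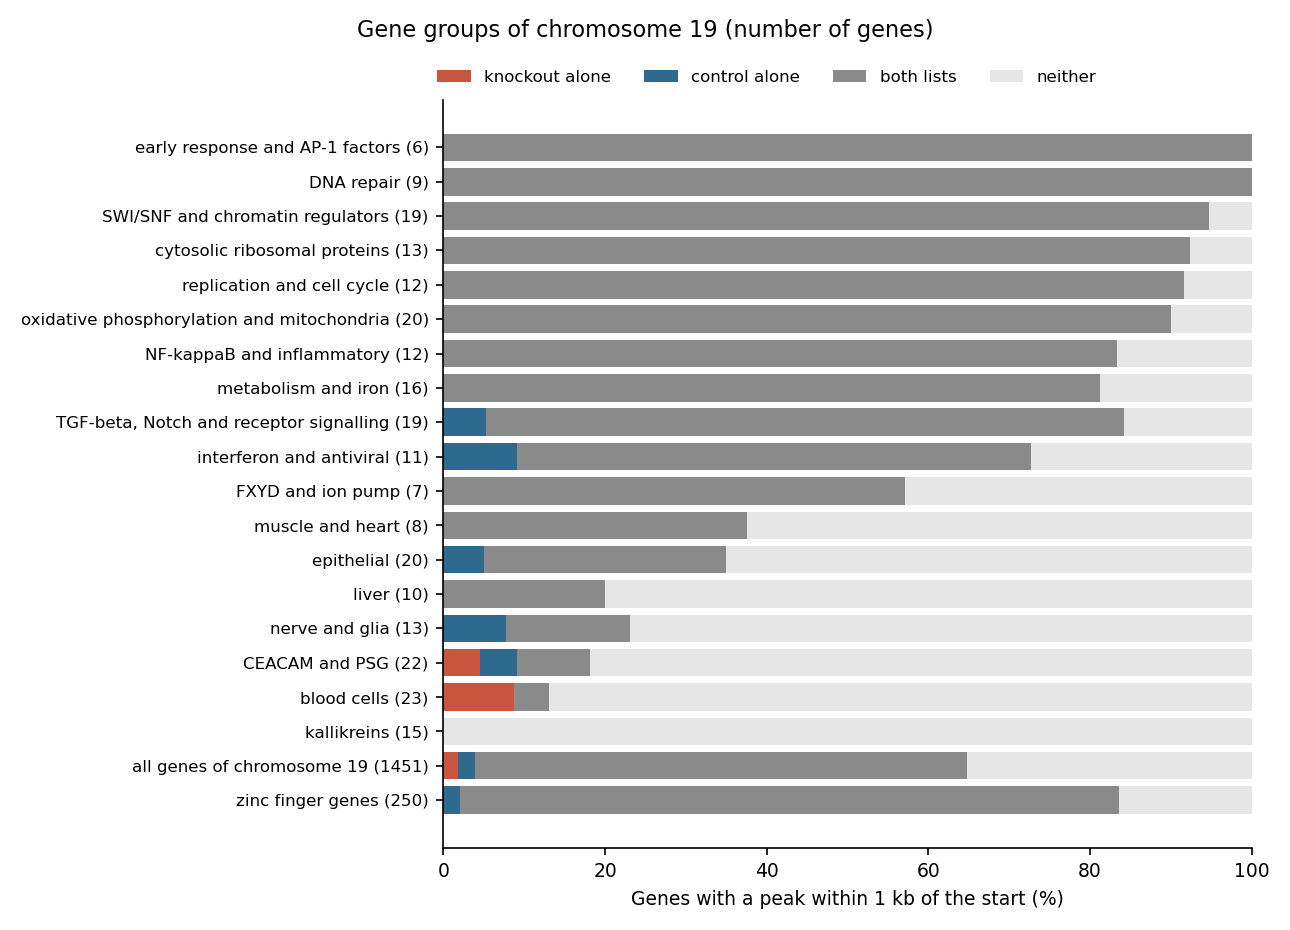
Share of genes (%) in each group of chromosome 19 genes with a peak within 1 kb of the start in the knockout list alone (red), the control list alone (blue), both (dark grey) or neither (light grey), with the number of genes in brackets. Groups of basic cell functions are almost wholly dark grey, the 15 kallikreins wholly light grey, and the 250 zinc finger genes (those with a ZNF symbol) 81.6% dark grey.

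Of 130 microRNA hairpins on the chromosome, 23 lay in shared regions, 0 in knockout-only, 2 in control-only (MIR3189 and MIR4531) and 105 in none. Shared regions covered 4.405 Mb, knockout-only 0.221 Mb and control-only 0.259 Mb of the chromosome. With so little sequence in the genotype-only classes, counts of 0 and 2 do not tell these classes apart. The cluster of MIR23A, MIR27A and MIR24-2, whose mature forms are printed above, lay in a shared region of 23.02 kb near ZSWIM4, covered over 21.6 kb in the knockout list and 22.8 kb in the control list. The span from MIR512-1 to MIR373 (53666679 to 53788773), which makes the placental and the stem cell microRNAs of this chromosome, held 47 hairpins, and none lay in a region. A single region touched that span, a knockout-only one from 53746842 to 53747600 with a fold of 4.80. The next region to the right of the span, 35.7 kb away, was also knockout-only, at the start of NLRP12, an inflammasome-related receptor, with a fold of 4.77.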

How the data were processed

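H3K27ac ChIP-seq of MDA-MB-231 cells with and without ARID1A was analysed from 1 peak list per genotype, called on the immunoprecipitate over the input of that genotype. Per the submitters' processing notes, the tools were Bowtie2 2.3.5.1 (alignment, build hg38) and MACS2 2.2.6 (peaks). Options, read filters, library depth and whether replicates were pooled are not given in the sources used here, so list length and peak width can reflect depth as well as the cells. Per the file headers, the authors deposited for each peak its position, its width in bp, its pileup (a coverage signal), the −log10 p and −log10 q, and the fold enrichment (a ratio). The deposited values were used unchanged, and depth is unknown.

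Peaks on chromosomes 1 to 22 and X were merged at an overlap of at least 1 bp. Gene starts are those of RefSeq on GRCh38.p14 within 1 kb. Of 1451 protein-coding genes on chromosome 19, 1185 had a listed start, and for the other 266 both gene ends were used, so at these a peak may lie at the 3′ end. Gene bodies were not split into exons and introns, and region sequences were not analysed here. Exact binomial (Clopper-Pearson) intervals at 95% cover counting error only. With 1 list per genotype no test was run. The code of the class assignment was run on simulated data: all of 3000 simulated regions (100%) were recovered. These regions were well separated and planted without missed peaks, so this checks the code and not the error of the classes in the real lists.

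The members, gene lists and definitions were chosen with earlier results of these data known. Genes were named by rule: the 12 regions at gene ends and the 10 strong regions of highest fold per genotype, the 8 highest and 8 widest shared regions, the widest regions of the windows with the most and fewest regions, and the group members with a peak in 1 genotype alone. Genes of runs, gaps, repeatedly touched genes and shared regions of unequal length were chosen after their values were seen. Some genes that met these rules are not reported here. Alternatives were other q cuts, equal list length, other windows, distances and gene sets, and 2 definitions of a gene start added after the data were seen. Python 3.11.15, numpy 2.4.6, pandas 2.3.3, scipy 1.17.1 and matplotlib 3.10.9 were used.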

Additional observations from a re-analysis of the deposited data

How the results depend on the processing

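Of 62 values recomputed under alternatives, 40 were close to the value reported, 20 moved and 2 reversed. The knockout-only minus control-only difference, -2.45 percentage points as reported, reversed to 5.88 at a −log10 q of at least 5 and to 1.89 at 2, and was -5.98 with lists of equal length. The control-only share was 6.60% at a −log10 q of at least 5, 9.73% at 2 and 15.4% with equal length, and the knockout-only share 9.41% with equal length. Raising the cut to 5 left 1346 of 1764 control peaks and 1472 of 1753 knockout peaks. At that cut the share of windows with more control-only regions was 16.7%. The share at gene starts was 17.4% of knockout-only, 14.98% of control-only and 59.1% of shared regions with genes of all types, 16.4% and 16.9% of knockout-only and control-only with both ends of every gene, 17.8% of control-only and 60.7% of shared at a −log10 q of 5, 55.4% of shared within 2 kb and 45.6% with listed starts only. Strong regions numbered 3 knockout-only and 2 control-only in the upper 25% by fold, 7 control-only with no other peak within 5 kb, and 3 control-only at a −log10 q of 5. The r of genes and regions per Mb was 0.801 in 2 Mb windows. The cause of these moves and reversals was not tested. No paired analysis was possible because there was 1 peak list per genotype, and for the same reason no replicate could be left out. Shares in windows with few regions are limited by counting error.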

Other observations

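Among the shared regions that were longer in the knockout list, a region in the body of CACNA1A was covered over 3.24 kb in the knockout list and 0.381 kb in the control list. The strongest knockout-only region inside any gene of the chromosome, at a fold of 11.1, lay in the same gene. A shared region at the start of C3, the central complement component, had 5.31 kb in the knockout list and 2.42 kb in 2 control peaks. Another in BICRA, a subunit of the GBAF form of SWI/SNF, which lacks ARID1A, had 6.19 kb in the knockout list and 3.25 kb in the control list. At ZNF83 the lengths were 11.9 kb in the knockout list and 7.32 kb in the control list. On the other side, a region at the starts of ATF5, IL4I1 and NUP62 had 3.26 kb in the knockout list and 9.17 kb in the control list, and 1 in GATAD2A, a subunit of the NuRD complex, had 1.76 kb in the knockout list and 8.85 kb in the control list.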
